A study of Mus musculus with 96 samples.

Results

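The transcripts followed here encode 9 proteins that have been proposed to link blood to the ageing brain, or their receptors: the secreted factors Gdf11, Timp2 and Igf1, the IGF receptor Igf1r, and the TGF-beta superfamily receptors Tgfbr1, Acvr1b, Acvr2a, Acvr2b and Bmpr2. They were chosen by name, as proposed youth factors and their receptors, by a rule that uses no measured value but was written with earlier results of these data known. All 9 were among the 35486 gene symbols of the count table, and all 9 passed the filter on low counts in every fit. Messenger RNA was sequenced in bulk from homogenized cerebellum, cortex and hippocampus of male C57BL/6J mice, which carried no transgene or deletion according to the labels. The 96 libraries came from 38 mice.

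In the first experiment, 29 mice each gave a cerebellum, a cortex and a hippocampus library. Untreated (naive) mice were 2 months (4 mice) or 18 months old (3 mice); the series text gives the age of the young mice as 3 months, and the labels give 2. PBS, the saline vehicle, was injected daily for 7 days into 4 mice of 18 months and 3 mice of 22 months. Plasma of young donors was injected by the same schedule into 5 mice of 18 months and 3 mice of 22 months. A course of 24 daily injections was given at 19 months, with PBS in 4 mice and young plasma in 3. The second experiment took only the hippocampus at 18 months, after 7 injections of PBS (4 mice) or young plasma (5 mice). No control group received aged plasma or a purified factor, so a plasma difference here is a difference from PBS.

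GDF11 is a secreted ligand of the TGF-beta superfamily, closely related to myostatin. Such ligands bind a type II receptor kinase (Acvr2a, Acvr2b or Bmpr2), which activates a type I receptor kinase (Acvr1b or Tgfbr1), and this phosphorylates SMAD proteins that enter the nucleus and regulate transcription. IGF1 is a growth factor made by the liver and by local cells, and it acts through the receptor tyrosine kinase Igf1r. TIMP2 is a secreted inhibitor of matrix metalloproteinases and also takes part in activating pro-MMP2 together with MMP14. Each of the 3 factors has been proposed to mediate effects of young blood on aged tissue, and for GDF11 the direction of its change with age has been debated. The libraries measure transcripts made within the brain, not the proteins carried in plasma. In tissue of mixed cells, fewer cells of a type and less RNA per cell cannot be told apart.

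Library totals ran from 851288 to 23768385 counts, with a median of 8889509. Cerebellar markers (8 genes) set cerebellum apart. They summed to 2211 to 3079 CPM (counts per 1000000 of the library total) in cerebellum and at most 32.3 CPM in cortex and 123 in hippocampus. The other region lists (8 genes each) overlapped between regions. Cortex markers summed to 645 to 1064 CPM in cortex and up to 825 in hippocampus. Hippocampal markers summed to 411 to 1656 CPM in hippocampus and up to 713 in cerebellum and 482 in cortex. Within regions, 8 libraries (6 of hippocampus and 2 of cortex) lay more than 3 median absolute deviations below their region's median for its own neuron markers, and 7 libraries, 1 of them among those 8, had under 2500000 counts. Fits that held any of the 8 libraries of low markers were repeated without them. Where that moved a member's difference described here by more than 1.5 times or changed its call, the value without them is given beside it. Values of single genes without these libraries were taken for the members only, so those of other named genes were not checked in this way. A second number in the sample titles, whose meaning is not stated, differs between most groups, so it and those group differences cannot be told apart. The labels name separate mice as replicates.

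The genes lie on different chromosomes except for Gdf11 and Igf1 (GRCm38 coordinates, GENCODE annotation). Gdf11 spans chr10:128882295-128891718 on the minus strand and Igf1 chr10:87858265-87937042 on the plus strand. Timp2 lies on the minus strand at chr11:118301069-118355740, Igf1r on the plus strand at chr7:67952827-68233668. The type I receptor genes are Tgfbr1 (chr4:47353222-47414931) and Acvr1b (chr15:101174067-101213684), and the type II receptor genes are Acvr2a (chr2:48814109-48903269), Acvr2b (chr9:119402118-119434995) and Bmpr2 (chr1:59763400-59879014), all on the plus strand. Of the exon bases of Acvr2a, 446 (7.8%) overlap exons of Orc4 on the other strand, and the unstranded libraries cannot separate the reads of these bases. No other member overlaps an annotated exon of a neighbour.

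Timp2 and Acvr2a were the pair of members whose levels varied together most from library to library, so the sequences at their start sites are shown here. Each window holds 250 bases before and 50 bases after the start given by RefSeq (GRCm38.p6), 5′ to 3′ on the strand of the gene. For Timp2 the window is chr11:118355362-118355661, and the GENCODE gene begins further upstream. For Acvr2a it is chr2:48813859-48814158. Capitals mark matches to GGGCGG (GC box) or CCAAT on either strand.
Timp2: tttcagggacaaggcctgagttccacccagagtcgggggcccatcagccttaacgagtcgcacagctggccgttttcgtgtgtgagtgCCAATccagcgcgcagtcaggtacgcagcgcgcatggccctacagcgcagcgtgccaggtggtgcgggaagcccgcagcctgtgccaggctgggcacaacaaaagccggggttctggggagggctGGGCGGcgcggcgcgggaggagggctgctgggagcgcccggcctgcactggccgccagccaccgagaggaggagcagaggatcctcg
Acvr2a: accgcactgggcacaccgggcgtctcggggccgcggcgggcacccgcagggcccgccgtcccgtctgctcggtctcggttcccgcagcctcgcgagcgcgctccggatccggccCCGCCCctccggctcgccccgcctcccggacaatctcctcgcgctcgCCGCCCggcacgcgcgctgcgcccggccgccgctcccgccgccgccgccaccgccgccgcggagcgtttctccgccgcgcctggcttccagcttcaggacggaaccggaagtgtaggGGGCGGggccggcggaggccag
The Timp2 window holds 1 GC box and 1 CCAAT box, and the Acvr2a window holds 3 GC boxes and no CCAAT box. Neither holds TATAAA or CAGACA, the letters of a SMAD-binding element. Of 32851 RefSeq promoter windows of the same length, 35.7% hold GGGCGG, 37.4% CCAAT, 13.6% TATAAA and 21.0% CAGACA. The GC content was 68.7% for Timp2 and 80.3% for Acvr2a, against a median of 52.7% over all windows. These matches describe letters and show no binding.

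Per kilobase of exon, Timp2 was the most abundant of the 9 transcripts in every region, at a median of 16.1 CPM per kb in cerebellum, 45.9 in cortex and 76.1 in hippocampus (29 libraries each), although its cerebellum libraries overlapped those of Acvr1b. Acvr1b, the activin type I receptor, was next, at 12.4, 16.2 and 13.6 CPM per kb in the same order of regions. Igf1, the ligand, was the lowest, at 1.07, 1.04 and 0.956 CPM per kb, while its receptor Igf1r stood at 7.42, 6.27 and 5.46. The ligand was therefore the scarcer transcript of the IGF pair in all 3 regions. Acvr2a was found at 7.89, 6.68 and 10.7 CPM per kb, its paralogue Acvr2b at 4.32, 3.12 and 2.92, and the BMP type II receptor Bmpr2 at 5.67, 6.65 and 6.04. Gdf11 stood at 6.58, 3.43 and 4.73 CPM per kb, and Tgfbr1, the TGF-beta type I receptor, at 2.33, 3.51 and 4.01. At the median, Acvr2a exceeded Acvr2b in all 3 regions.

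**Figure D1:**
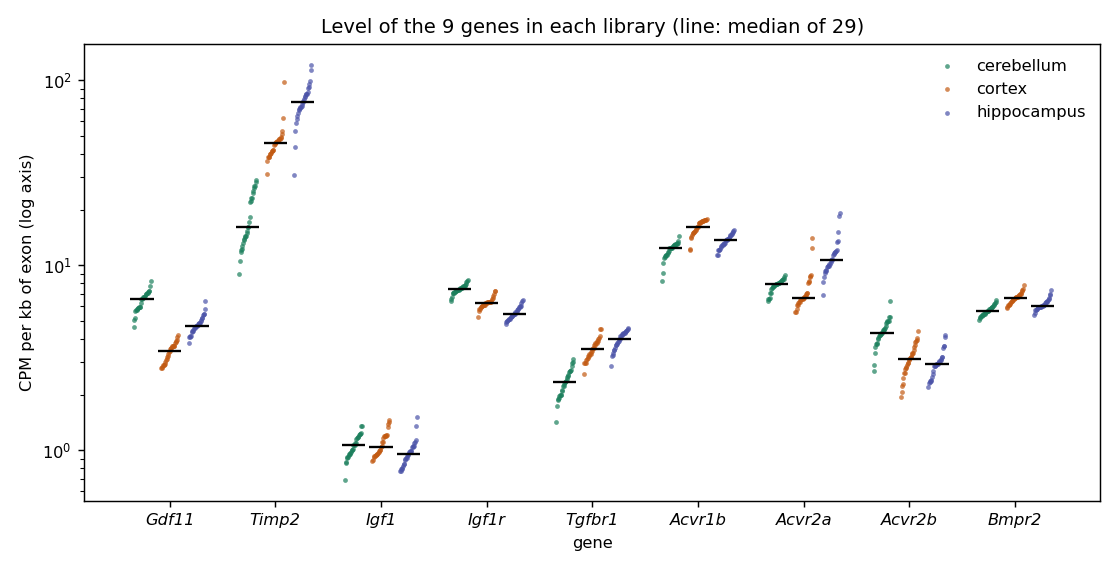
Level of each of the 9 transcripts in each library of the first experiment, in CPM per kb of exon (y axis, log scale), with colours for cerebellum, cortex and hippocampus (29 libraries each). Points are libraries and black bars are medians; Timp2 runs from a median of 16.1 in cerebellum to 76.1 in hippocampus, while Igf1 lies at 0.956 to 1.07 in the 3 regions.

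Spread between libraries differed greatly among the 9. For Timp2 the coefficient of variation over 29 libraries was 33.3% in cerebellum, 25.0% in cortex and 24.2% in hippocampus. Igf1r varied by 6.03%, 7.00% and 8.25%, and Bmpr2 by 6.32%, 7.00% and 7.00%. Acvr2a varied by 8.10% in cerebellum but by 25.5% in cortex and 23.9% in hippocampus. Timp2, and Acvr2a outside the cerebellum, were thus the members with the widest spread. When the 8 groups of a region were ordered by mean, neighbouring groups overlapped in every case but 1, which was Acvr2b in cerebellum, where the naive 2-month group was lowest and did not reach the next group. The share of all genes with such a gap was not computed, so this describes the 9 members only.

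Region was the strongest difference among these genes (8 groups per region weighted equally; log2 differences with standard error from edgeR's quasi-likelihood fit of 87 libraries with TMM scaling; Benjamini-Hochberg adjusted p under 0.05 as threshold). In each of the 3 region comparisons 8 of the 9 members passed, where 83.3% of all genes tested passed between cerebellum and cortex, 60.3% between hippocampus and cortex and 84.1% between hippocampus and cerebellum. A count of 8 of 9 is therefore close to the background in the comparisons with cerebellum. TMM scaling moved the levels of the median library by −0.11 on the log2 scale in cerebellum, 0.06 in cortex and 0.03 in hippocampus relative to CPM of library totals. Differences of that size between cerebellum and the other regions depend on the scaling. Without the 8 libraries of low region markers no called member of these 3 comparisons lost its call, and Timp2 was −1.46 for cerebellum against cortex, 0.66 for hippocampus against cortex and 2.12 for hippocampus against cerebellum.

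Among the factors, Timp2 differed most. Its CPM ran from 34.8 to 113 with a median of 62.5 in cerebellum, from 122 to 384 with a median of 179 in cortex, and from 120 to 474 with a median of 297 in hippocampus. The cerebellum libraries did not overlap those of either other region, and hippocampus exceeded cortex in 27 of 29 mice. The fitted difference was −1.53 ± 0.09 for cerebellum against cortex, 0.67 ± 0.08 for hippocampus against cortex and 2.20 ± 0.09, or 4.58-fold, for hippocampus against cerebellum (adjusted p = 4.95e-26, 1.40e-10 and 5.99e-35). Timp4, another TIMP gene, was instead highest in cerebellum, with medians of 238 CPM in cerebellum, 61.4 in cortex and 80.1 in hippocampus and 1.82 ± 0.03 for cerebellum against cortex. Timp3 was at 164, 123 and 131 CPM, and Timp1 was under 1 CPM at the median in each region. Mmp14, the membrane protease that forms a complex with TIMP2, was highest in cerebellum, where Timp2 was lowest, at a median of 17.9 CPM against 7.61 in cortex and 12.7 in hippocampus. Mmp2, the secreted protease it activates, stood between 2.00 and 2.74 CPM.

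Gdf11 was highest in cerebellum. Its CPM ran from 18.8 to 33.3 with a median of 26.7 there, from 11.3 to 17.0 with a median of 13.9 in cortex, and from 15.5 to 26.1 with a median of 19.2 in hippocampus. Cerebellum exceeded cortex in 29 of 29 mice with no overlap of libraries, and hippocampus exceeded cortex in 28 of 29. The difference was 0.75 ± 0.05 for cerebellum against cortex (1.69-fold), 0.47 ± 0.05 for hippocampus against cortex and −0.28 ± 0.04 for hippocampus against cerebellum. Mstn, the gene of the related ligand myostatin, was too low to test, with medians of 0.612, 0.0643 and 0.391 CPM in cerebellum, cortex and hippocampus.

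Igf1 differed little. Its medians were 10.6 CPM in cerebellum, 10.3 in cortex and 9.47 in hippocampus, and the libraries of the 3 regions overlapped widely. The fit put cortex above both other regions, by −0.19 ± 0.06 for cerebellum and −0.18 ± 0.06 for hippocampus (adjusted p = 0.00156 and 0.00465). On CPM of totals the cerebellum median is the higher, and after TMM scaling it is the lower, at 9.42 against 10.7 CPM in cortex. Igf1r was highest in cerebellum on both scales, at a median of 125 CPM against 105 in cortex and 91.7 in hippocampus, and hippocampus was lower than cerebellum in 29 of 29 mice (−0.28 ± 0.03). Its difference between cerebellum and cortex, 0.08 ± 0.03, no longer passed with DESeq2 (0.05, adjusted p = 0.0870) or with relative log expression size factors (0.05, adjusted p = 0.0740). The other receptors for insulin-like ligands were also highest in cerebellum, with 0.63 ± 0.04 for the insulin receptor Insr and 0.87 ± 0.04 for the clearance receptor Igf2r against cortex.

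Both type I receptor genes were lower in cerebellum than in cortex. Tgfbr1 had medians of 15.2 CPM in cerebellum, 22.9 in cortex and 26.2 in hippocampus, and cerebellum was the lowest in 29 of 29 mice against either region (−0.76 ± 0.05 against cortex). Acvr1b had medians of 54.8, 71.7 and 60.2 CPM, with cortex highest (−0.57 ± 0.04 for cerebellum, −0.27 ± 0.04 for hippocampus). The type I receptor gene Acvr1c followed Acvr1b, with medians of 35.0, 57.2 and 37.0 CPM. Bmpr1a, a BMP type I receptor gene, was instead highest in cerebellum, at 0.52 ± 0.03 against cortex.

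The type II receptor genes did not share an order of regions. Acvr2a was highest in hippocampus, with a median of 60.9 CPM against 38.0 in cortex and 44.9 in cerebellum, and hippocampus exceeded cortex in 27 of 29 mice (0.56 ± 0.06). Its fitted difference between cerebellum and cortex was −0.08 ± 0.06 (adjusted p = 0.233; −0.01 without the libraries of low region markers), although the CPM of totals was higher in cerebellum in 22 of 29 mice. Acvr2b was highest in cerebellum, at 17.0 CPM against 12.3 in cortex and 11.5 in hippocampus (0.32 ± 0.06 against cortex). Its hippocampus and cortex libraries differed by −0.09 ± 0.06 (adjusted p = 0.197), and by −0.15 with adjusted p = 0.0198 when the libraries with low region markers were left out. Bmpr2 was highest in cortex, at 120 CPM against 102 in cerebellum (−0.39 ± 0.03) and 109 in hippocampus (−0.12 ± 0.03). Tgfbr2, the type II receptor gene of TGF-beta itself, was close to level, with −0.18 ± 0.05 and −0.15 ± 0.05 against cortex.

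**Figure D2:**
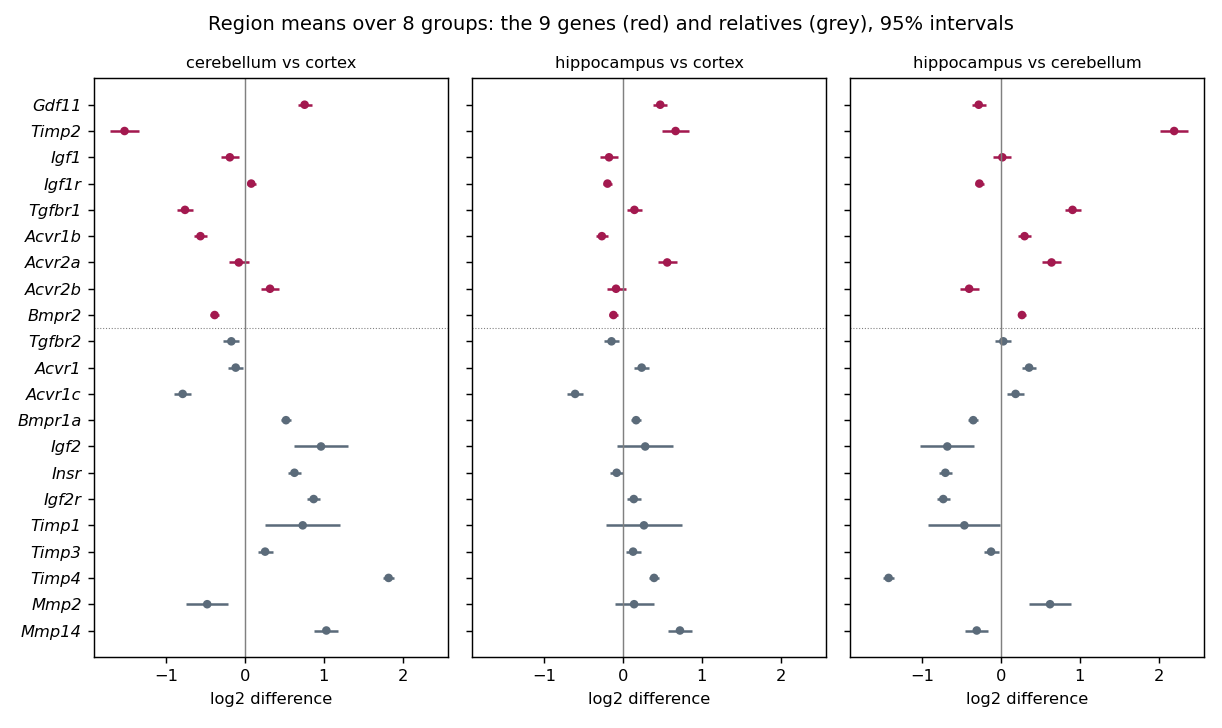
Log2 difference between region means (x axis) with 95% confidence intervals, from the fit of 87 libraries, for the 9 genes (red) and 12 related genes (grey), in a panel for each pair of regions. Timp2 reaches 2.20 for hippocampus against cerebellum and −1.53 for cerebellum against cortex, Igf1 stays within 0.2 of 0, and Gdf11 and Acvr2b are positive for cerebellum against cortex.

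In the naive 2-month mice alone (4 per region), 6 members passed between cerebellum and cortex, where 59.2% of all genes passed. Between hippocampus and cerebellum 6 passed as well, also against 59.2%, and between hippocampus and cortex 1 did, against 12.5%. Timp2 was 34.8, 56.0, 45.9 and 90.1 CPM in cerebellum, 183, 245, 179 and 163 in cortex and 284, 270, 209 and 387 in hippocampus of these mice. The cerebellum values lay below all others, with −1.91 ± 0.24 against cortex. Gdf11 was 26.7, 31.3, 27.5 and 29.0 CPM in cerebellum and 14.9, 17.0, 13.1 and 16.7 in cortex (0.74 ± 0.12), so the groups did not overlap. Acvr2a passed between cerebellum and cortex at −0.39 ± 0.17 (adjusted p = 0.0392) and did not with the mouse as a block (−0.38, adjusted p = 0.0655). That difference rested on replicate 14, which held the highest Acvr2a of any cortex library, 79.8 CPM. Without this mouse it was −0.09 (adjusted p = 0.700), and without the libraries of low region markers −0.10 (adjusted p = 0.533). Between hippocampus and cortex, Acvr2a was 0.37 ± 0.16 (adjusted p = 0.138) with all 4 mice and 0.75 without replicate 14 (adjusted p = 6.40e-04). The member that passed between hippocampus and cortex was Bmpr2 (−0.21 ± 0.07, adjusted p = 0.0395), which was not called without the libraries of low region markers (−0.21, adjusted p = 0.0852). That count of members ran from 0 to 6 across the alternative settings, and the number of all genes called from 863 to 4485 around 2428. The hippocampus library of replicate 14 had low hippocampal markers, with Prox1, a dentate granule cell marker, at 17.2 CPM. In the hippocampus libraries of these mice, cortex markers summed to 360 to 825 CPM with a median of 385. Their cortex libraries had 645 to 979 CPM. Whether a hippocampus library held cortex tissue was not tested.

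Within regions the members differed far less. Across 20 comparisons of age or treatment, edgeR with all groups of a region and the filter on low counts called 0 of 180 member tests, and 18 (10.0%) had an unadjusted p under 0.05, against 6.15% of all genes in the same comparisons. DESeq2 also called 0 and limma-voom called 2, both of them Timp2. The largest difference was 1.01 on the log2 scale, and the smallest adjusted p was 0.0812. In the 19 comparisons of a pair of groups, the groups did not overlap for 8 of 171 member values (4.68%), against 6.73% over all genes. In the 13 comparisons refitted without libraries of low region markers, 0 of 117 member tests were called and 7 (5.98%) had an unadjusted p under 0.05, against 4.77% of all genes.

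**Figure D3:**
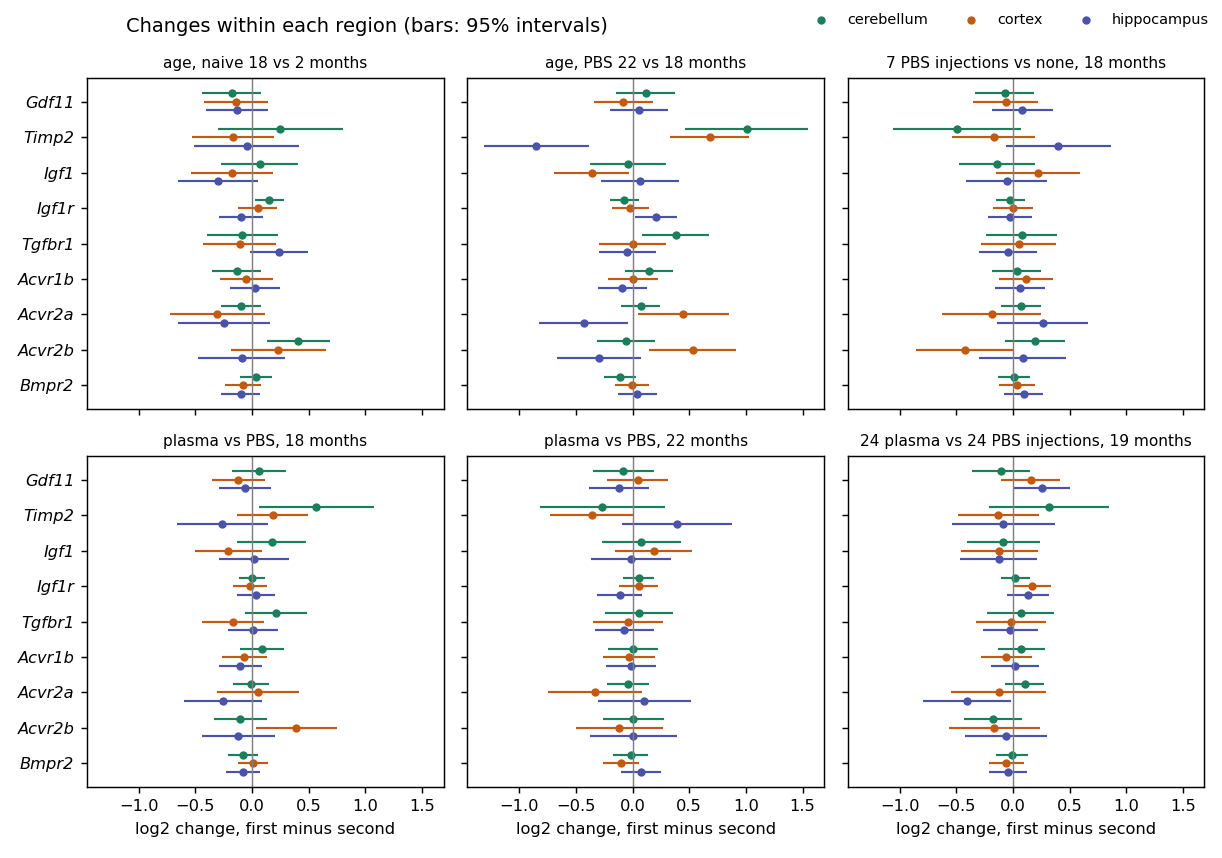
Log2 difference (x axis) with 95% confidence interval for each of the 9 genes in the comparisons of age and treatment within cerebellum, cortex and hippocampus. No member passed the threshold in these fits; Timp2 in 22-month against 18-month PBS mice lies farthest from 0, at 1.01 in cerebellum, 0.68 in cortex and −0.85 in hippocampus.

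Naive mice of 18 and 2 months were compared for age without any injection. In cerebellum 0 of the 9 members passed, where 2.39% of all genes did; in cortex 0 of 9 passed against 0.112%, and in hippocampus 0 of 9 against 0.0719%. The Gdf11 transcript was 24.1, 29.0 and 23.5 CPM in cerebellum at 18 months and 26.7, 31.3, 27.5 and 29.0 at 2 months, so the ages overlapped. Its difference was −0.18 ± 0.13 in cerebellum, −0.14 ± 0.14 in cortex and −0.13 ± 0.13 in hippocampus (adjusted p = 0.557, 0.976 and 1). The 95% intervals of the 3 regions lay between −0.44 and 0.14, so a loss of up to 0.44 or a gain of up to 0.14 on the log2 scale lies within them. Without the libraries of low region markers Gdf11 was −0.09 in cortex and −0.16 in hippocampus.

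Acvr2b in cerebellum came closest to the threshold with age. It was 15.7, 16.2 and 17.7 CPM at 18 months and 11.4, 10.6, 14.3 and 13.2 at 2 months, and the ages did not overlap, as for 13.6% of all genes there. The difference was 0.41 ± 0.14 (adjusted p = 0.113 in edgeR). Igf1r in cerebellum was 124, 128 and 140 CPM against 108, 119, 125 and 111, so that a single library of each age crossed over, with 0.15 ± 0.06 (adjusted p = 0.238). Igf1 in hippocampus was 7.83, 9.27 and 10.8 CPM at 18 months and 10.4, 13.4, 11.0 and 10.5 at 2 months, with the 10.8 of replicate 9 inside the younger range (−0.30 ± 0.17, adjusted p = 0.849). Tgfbr1 in hippocampus was 28.2, 28.3 and 27.1 CPM against 27.5, 22.9, 21.1 and 18.7 (0.24 ± 0.13, adjusted p = 0.808). Without the 2 young hippocampus libraries of low region markers these were −0.19 for Igf1 and 0.17 for Tgfbr1. Acvr2a in cortex was −0.31 ± 0.21, and −0.01 without replicate 14. Timp2 ranged from 53.6 to 86.2 CPM at 18 months and from 34.8 to 90.1 at 2 months in cerebellum, a spread that leaves an interval of −0.30 to 0.80. No member's age difference was called as different between regions (27 tests; 0.0410%, 0% and 0.0513% of all genes called for cerebellum minus cortex, hippocampus minus cortex and hippocampus minus cerebellum).

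In the same cerebellum comparison 3 other genes of these pathways passed. Foxo1, a transcription factor that insulin and IGF signalling holds out of the nucleus, was higher at 18 months (0.67 ± 0.10, adjusted p = 1.17e-04), as was Ltbp2, a matrix protein related to the latent TGF-beta binding proteins (0.59 ± 0.10, adjusted p = 5.52e-04). Pappa, the protease that cleaves IGF-binding proteins and so frees IGF, was lower (−0.96 ± 0.15, adjusted p = 2.21e-04). That was 1 gene passing of 19 tested in IGF signalling, and 1 of 18 TGF-beta binding proteins and activators. Among IGF ligands, receptors and binding proteins it was 1 of 13. Of all genes in this comparison 2.39% passed. In no other comparison within a region did a gene of the 8 pathway lists pass.

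Mice given PBS at 22 and at 18 months give another view of age, which cannot be told apart from the second title number, since no number is shared by both ages. Timp2 was the member that stood apart here. In cerebellum it was 97.7, 86.4 and 113 CPM at 22 months and 51.5, 49.7, 41.0 and 53.9 at 18 months, and in cortex 188, 384 and 184 against 162, 151, 156 and 143. In hippocampus the order was the other way, with 317, 120 and 170 CPM at 22 months against 330, 374, 337 and 442. In all 3 regions the ages did not overlap, as for 15.1% of all genes in cerebellum, 9.49% in cortex and 10.4% in hippocampus.

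The differences were 1.01 ± 0.27 in cerebellum (2.01-fold, adjusted p = 0.0812), 0.68 ± 0.17 in cortex (adjusted p = 0.148) and −0.85 ± 0.23 in hippocampus (adjusted p = 0.504), so none was called. Of all genes 0.157% were called in cerebellum, 0.00533% in cortex and 0% in hippocampus. The cerebellum difference passed with limma-voom (adjusted p = 0.0312), with no filter on low counts (0.00743) and in a fit of the 2 groups alone (6.41e-07). The hippocampus difference passed with limma-voom (−0.99, adjusted p = 0.0291), and was −0.71 without the libraries of low region markers (adjusted p = 0.865). The cortex difference was 0.25 without replicate 15, whose Timp2 level was the highest of all cortex libraries.

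Whether the change differed between regions was tested directly, in contrasts added after these values were seen. For Timp2 the change in hippocampus minus that in cerebellum was −1.87 ± 0.36 (adjusted p = 0.0100; 0.718% of all genes called), and hippocampus minus cortex was −1.53 ± 0.34 (adjusted p = 0.0145; 0.626% called). Cerebellum minus cortex was 0.34 ± 0.36 (adjusted p = 0.911; 0.0103% called), or 0.77 without the libraries of low region markers (adjusted p = 0.545). These were the only 2 calls among 90 member tests of differences between regions or experiments, where 13 (14.4%) had an unadjusted p under 0.05, against 6.55% of all genes, of which 0.146% were called. With the mouse as a block both held (−1.92, adjusted p = 0.0205, and −1.54, adjusted p = 0.0460). Hippocampus minus cerebellum was also called without the libraries of low region markers (−1.72, adjusted p = 0.0284) but not without replicate 18 (−1.65, adjusted p = 0.215). The libraries of low region markers include none of cerebellum, so leaving them out kept every cerebellum library. Hippocampus minus cortex was not called without the libraries of low region markers (−0.95, adjusted p = 0.646), nor without replicate 15 (−0.85, 0.972), replicate 11 (−1.41, 0.111) or replicate 5 (−1.52, 0.0534).

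**Figure D4:**
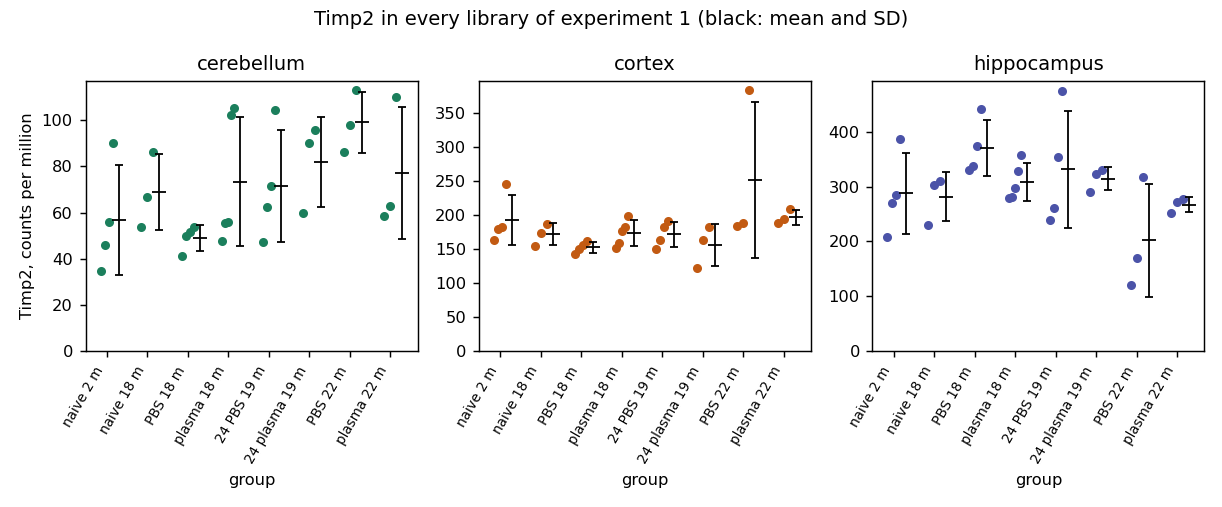
Timp2 in CPM (y axis) for each library of the first experiment, by group of age and treatment, in cerebellum, cortex and hippocampus; black marks are the group mean and SD. In PBS mice the 3 libraries of 22 months lie above the 4 of 18 months in cerebellum (86.4 to 113 against 41.0 to 53.9 CPM) and in cortex, and below them in hippocampus (120 to 317 against 330 to 442 CPM).

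Region markers moved with these Timp2 values. The hippocampal marker score (mean log2 CPM of 8 markers) was 5.84 and 5.77 in the 18-month PBS replicates 5 and 11, which had the highest Timp2 of their group, and 6.99 in the 22-month replicate 15, which had the lowest. The score of cortex markers in the cortex library of replicate 15 was 6.11, while the other PBS cortex libraries had 6.39 to 6.55. These scores overlapped between the PBS ages, but the summed cortex markers did not. The sums were 667 to 908 CPM at 22 months and 957 to 1064 CPM at 18 months. In cerebellum the score of cerebellar markers separated the PBS ages, at 7.49 to 7.68 at 22 months and 7.71 to 7.91 at 18 months. The summed cerebellar markers there were 2327 to 2514 against 2571 to 2780 CPM. Over the 29 libraries of a region, after removing group means, Timp2 correlated with the score of its own region at r = −0.74 in cerebellum, −0.65 in cortex and −0.52 in hippocampus. The libraries share their dissection, depth and group structure, and the correlations describe them only. Choroid plexus markers (10 genes) summed to 28.8 to 39.5 CPM in hippocampus at 22 months, with 2 of the 10 at 0 in every library, and to 38.2 to 149 CPM at 18 months. In cerebellum they summed to 1076 to 1370 CPM at 22 months and to 54.4 to 1263 at 18 months. Other marker lists also separated the PBS ages, with no marker at 0. In cerebellum, microglia markers (10 genes) summed to 299.7 to 313 CPM at 22 months and 226 to 254 at 18 months, and astrocyte markers (7 genes) to 3007 to 3118 against 2750.3 to 2924 CPM. In hippocampus, oligodendrocyte markers (7 genes) summed to 5963 to 7209 CPM against 4045 to 4833. In cortex, endothelial markers (8 genes) were lower at 22 months, at 181 to 196 against 200.02 to 239 CPM, as were interneuron markers (7 genes), at 1052 to 1068 against 1073 to 1147 CPM. The part of dissection and of these cell types in the Timp2 differences was not tested.

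Other members differed less between the PBS ages. In cortex Igf1 was 9.79, 9.54 and 9.11 CPM at 22 months and 9.96, 14.0, 12.0 and 13.2 at 18 months, which do not overlap (−0.36 ± 0.16, adjusted p = 0.407). Acvr2a in cortex was 46.1, 70.9 and 39.6 CPM against 38.0, 38.4, 37.6 and 34.7, again without overlap (0.45 ± 0.19, adjusted p = 0.398), and the difference was 0.17 without replicate 15. Acvr2b in cortex was 11.1, 17.4 and 14.2 CPM against 10.9, 7.63, 8.15 and 13.2 (0.53 ± 0.19, adjusted p = 0.304), and 0.37 without the library of low region markers. In cerebellum, Tgfbr1 was 18.7, 16.6 and 19.5 CPM against 17.5, 15.0, 12.9 and 12.9, with a single 18-month library inside the older range (0.38 ± 0.14, adjusted p = 0.191). In hippocampus Acvr2a was 67.8, 39.4 and 46.2 CPM against 61.5, 77.2, 67.5 and 76.3 (−0.43 ± 0.19, adjusted p = 0.610), and −0.31 without the libraries of low region markers. Its change in hippocampus minus that in cortex was −0.88 ± 0.25 (adjusted p = 0.0604), the next largest after Timp2, and that of Acvr2b was −0.83 ± 0.24 (adjusted p = 0.0762). Without the libraries of low region markers these were −0.47 and −0.42 (adjusted p = 0.776 and 0.894). Gdf11 differed between the PBS ages by 0.12 ± 0.13, −0.08 ± 0.13 and 0.06 ± 0.13 in cerebellum, cortex and hippocampus, and by −0.19 in cortex without the library of low region markers.

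In the same region contrasts, Pcsk5, a proprotein convertase that processes TGF-beta family ligands including GDF11, was also called. It had −1.31 ± 0.30 for hippocampus minus cortex (adjusted p = 0.0183) and was 1 of 21 binding proteins and activators tested.

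PBS for 7 days was compared with no injection at 18 months, a difference that takes in injection, vehicle and handling together. It cannot be told apart from the second title number, since the groups share none. None of the 9 members was called in any region, nor was any other gene (0% of genes in each). Timp2 in hippocampus was 330, 374, 337 and 442 CPM after PBS and 302, 230 and 311 CPM without injection, which do not overlap, as for 6.94% of all genes there (0.40 ± 0.23, adjusted p = 1; 0.26 without the PBS libraries of low region markers). In cerebellum it was 51.5, 49.7, 41.0 and 53.9 CPM after PBS and 86.2, 53.6 and 66.8 without, with a single library of overlap (−0.49 ± 0.28, adjusted p = 1). Acvr2b in cortex was −0.42 ± 0.21. The number at an unadjusted p under 0.05 was 0 of 9 in each region, against 3.32%, 3.63% and 3.54% of all genes in cerebellum, cortex and hippocampus.

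Young plasma against PBS at 18 months is the main treatment comparison. No member was called in cerebellum, cortex or hippocampus (0% of all genes in each), and 1, 1 and 0 of 9 had an unadjusted p under 0.05. Of all genes 4.05%, 4.06% and 2.43% had one, in the same order of regions. Timp2 in cerebellum was 47.6, 105, 102, 55.4 and 56.1 CPM after plasma and 51.5, 49.7, 41.0 and 53.9 after PBS (0.57 ± 0.25, adjusted p = 1). Replicates 4 and 7 held the difference, and the other 3 plasma libraries lay close to PBS. Without the 3 mice that share a second title number, 2 of plasma and 1 of PBS, it was 0.86. In cortex Acvr2b was 11.7, 10.8, 15.4, 15.1 and 10.3 CPM after plasma and 10.9, 7.63, 8.15 and 13.2 after PBS, which overlap (0.39 ± 0.17, adjusted p = 1). In hippocampus Timp2 was 357, 279, 329, 280 and 297 CPM after plasma and 330, 374, 337 and 442 after PBS (−0.26 ± 0.19), and the difference was −0.12 without the PBS libraries of low region markers.

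The 3 ligand genes gave no called plasma difference either. Gdf11 differed by 0.06 ± 0.12 in cerebellum, −0.12 ± 0.12 in cortex and −0.06 ± 0.11 in hippocampus, with 95% intervals inside −0.36 to 0.30. Igf1 differed by 0.17 ± 0.15, −0.21 ± 0.14 and 0.02 ± 0.15, and Igf1r by at most 0.03 in size. The plasma difference was not called as different between any pair of regions for any member (27 tests, 0% of genes called in each). The largest was Timp2 in hippocampus minus cerebellum, −0.84 ± 0.32 (adjusted p = 1), or −0.69 without the libraries of low region markers.

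The second experiment repeated the plasma comparison in hippocampus. None of the 9 was called (0% of all genes), and 0 of 9 had an unadjusted p under 0.05, against 7.96% of all genes. Timp2 was 240, 255, 286, 272 and 316 CPM after plasma and 310, 309, 276 and 303 after PBS (−0.09 ± 0.08). Acvr2a was 48.7, 47.0, 57.2, 47.4 and 51.1 CPM against 41.9, 54.8, 65.5 and 70.2 (−0.17 ± 0.13). Igf1 was 8.77, 9.48, 7.76, 10.5 and 8.05 CPM against 10.8, 9.52, 11.5 and 11.3, with 1 plasma library inside the PBS range (−0.24 ± 0.13, adjusted p = 0.682). Tgfbr1 ranged from 15.7 to 34.3 CPM against 14.0 to 24.9 (0.36 ± 0.20).

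With both experiments in a single fit (10 plasma and 8 PBS libraries, with the experiment as a covariate), Timp2 was −0.18 ± 0.06 (adjusted p = 0.355) and Acvr2a −0.22 ± 0.08 (adjusted p = 0.366). Without the libraries of low region markers they were −0.10 and −0.15. Timp2 and Acvr2a were the 2 of 9 members with an unadjusted p under 0.05, where 9.70% of all genes had one and 0% were called. The 2 experiments did not differ in the plasma effect on any member by a called amount (0% of genes called), and the widest 95% interval, that of Tgfbr1, was −0.14 to 0.85.

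At 22 months, after 7 injections, no member was called in any region (0% of all genes called in each), and 0 of 9 had an unadjusted p under 0.05 in each. Of all genes 2.28% had one in cerebellum, 5.64% in cortex and 1.68% in hippocampus. Timp2 in cortex was 188, 194 and 209 CPM after plasma and 188, 384 and 184 after PBS, and in hippocampus 277, 251 and 272 against 317, 120 and 170. The plasma libraries lay close together and inside the PBS range (−0.35 ± 0.18 and 0.39 ± 0.24). Without the PBS cortex library of low region markers the cortex difference was 0.08. Igf1 in cortex was 10.3, 9.96 and 11.8 CPM after plasma and 9.79, 9.54 and 9.11 after PBS, which do not overlap, as for 10.3% of all genes there (0.19 ± 0.16, adjusted p = 0.962).

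After 24 injections at 19 months no member was called (0% of all genes in each region), and 0, 1 and 2 of 9 had an unadjusted p under 0.05 in cerebellum, cortex and hippocampus. Of all genes 6.67%, 3.52% and 3.91% had one, in the same order of regions. Gdf11 in hippocampus was 19.8, 22.2 and 26.1 CPM after plasma and 15.5, 20.2, 17.8 and 22.0 after PBS (0.25 ± 0.12, adjusted p = 1), so the groups overlapped. Igf1r in cortex was 107, 122 and 114 CPM against 97.3, 106, 111 and 99.7 (0.17 ± 0.08, adjusted p = 1). Acvr2a in hippocampus was 55.5, 59.0 and 65.3 CPM after plasma and 108, 53.2, 64.7 and 86.6 after PBS (−0.41 ± 0.19), and −0.21 without PBS replicate 24 or −0.15 without both hippocampus libraries of low region markers. That library also had Timp2 at 474 CPM, the highest of all hippocampus libraries, and Prox1 at 22.2 CPM, while the other 3 had Prox1 at 60.9 to 105 CPM. The part of the low Prox1 library in the Acvr2a value was not tested.

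The genes whose pattern was most like that of Timp2 were ranked. Likeness was measured as Pearson's r over the 24 region-by-group means of log2 CPM, among 13067 candidate genes, and again after removing region means. Over the group means the nearest to Timp2 were Celf6 (0.98), Spindoc (0.98) and Slc22a17 (0.98), which share its order of regions. With region means removed they were Wdr6 (0.91), Baiap3 (0.90) and Plppr3 (0.90). Baiap3 and Plppr3 encode a regulator of dense-core vesicle release and a phospholipid phosphatase-related membrane protein.

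Library by library, deviations of Timp2 from its group mean correlated with those of Baiap3 at r = 0.90 in cerebellum, 0.89 in cortex and 0.83 in hippocampus (29 libraries each, which share dissection and depth). In PBS mice, Baiap3 was 27.2, 20.2 and 33.4 CPM in cerebellum at 22 months and 7.77, 3.78, 5.39 and 4.17 at 18 months. In cortex it was 4.93, 67.8 and 4.34 CPM against 4.82, 5.17, 3.61 and 4.89, so that replicate 15 alone was high, as for Timp2. In hippocampus it was 10.9, 2.01 and 5.66 CPM against 12.0, 19.7, 16.4 and 47.6. The hippocampus library of PBS replicate 24, the highest for Timp2, had the highest Baiap3 of its region, 133 CPM.

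**Figure D5:**
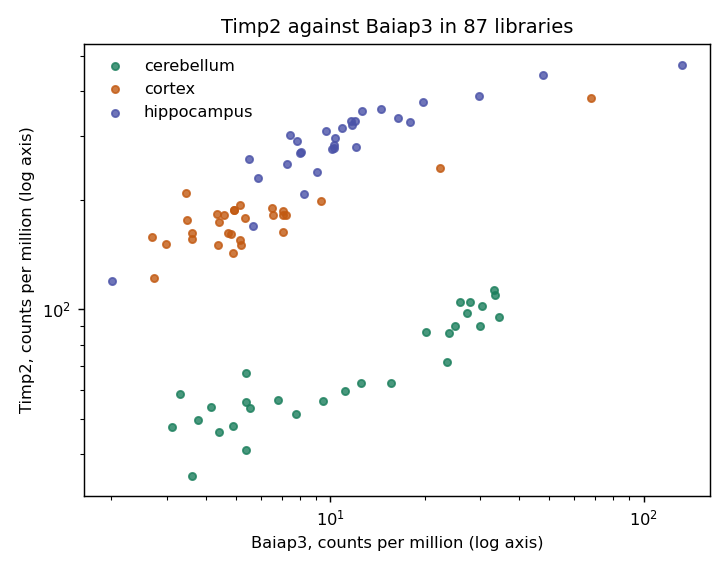
Timp2 (y axis) against Baiap3 (x axis), both in CPM on log scales, for the 29 libraries each of cerebellum, cortex and hippocampus. Libraries high in Baiap3 were high in Timp2 within each region, with r = 0.90, 0.89 and 0.83 for deviations from group means, and the cortex library at 67.8 CPM of Baiap3 has 384 CPM of Timp2.

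Among the members themselves, deviations of Timp2 and Acvr2a correlated at r = 0.79 in cortex and 0.84 in hippocampus but 0.13 in cerebellum. Over all 87 libraries the value was 0.56, and that of Acvr2a with Acvr2b was 0.34 and of Igf1r with Acvr1b 0.34. The genes nearest to Acvr2a with region means removed were Hpcal1 (0.87), Otof (0.85) and Gap43 (0.84), and deviations of Acvr2a correlated with the cortex marker score at r = −0.76 in cortex. For 6 other members the nearest genes over group means were Dbi for Gdf11 (0.97), Lrp3 for Igf1 (0.82), Aopep for Igf1r (0.93), Src for Tgfbr1 (0.98), Zdhhc22 for Acvr1b (0.98) and Maco1 for Acvr2b (0.86). The 24 group means share 3 regions, so these values mainly describe a shared order of regions.

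Region differences also ran through the other genes of the pathways. Between cerebellum and cortex 13 of 16 tested TGF-beta superfamily ligands passed (7 higher, 6 lower in cerebellum; 81.2%), 21 of 21 binding proteins and activators (10 higher, 11 lower), 6 of 8 SMAD genes, 13 of 14 IGF ligands, receptors and binding proteins (8 higher, 5 lower) and 12 of 15 TIMP and metalloproteinase genes (8 higher, 4 lower). The background is the 83.3% given above. The largest in cerebellum were Ltbp2 (6.91 ± 0.12), Gdf10, a BMP-like ligand gene (4.58 ± 0.07), and Pappa (4.45 ± 0.15). Bmp3, another ligand gene (−7.18 ± 0.24), and Igfbp4, an IGF-binding protein gene (−3.00 ± 0.08), were the lowest against cortex.

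Between hippocampus and cortex, 11 of 16 ligand genes passed (4 higher, 7 lower; 68.8% against 60.3% of all genes), 16 of 21 binding proteins and activators, 8 of 14 IGF ligands, receptors and binding proteins and 6 of 15 TIMP and metalloproteinase genes. Tgfb2, a TGF-beta ligand gene, was higher in hippocampus (2.46 ± 0.10), as were Dcn, which encodes the TGF-beta-binding proteoglycan decorin (2.42 ± 0.13), and Fstl5, a follistatin-like gene (1.27 ± 0.08). Igfbp6 (−1.98 ± 0.10), Bmp3 (−1.27 ± 0.12) and Fstl4 (−1.05 ± 0.06) were lower. Choroid plexus markers were higher in hippocampus than in cortex for 8 of 10 genes (median 2.70), and their part in these ligand differences was not tested. Between hippocampus and cerebellum, Bmp3 (5.92 ± 0.26), Pcsk5 (3.03 ± 0.09) and Igfbp4 (2.64 ± 0.08) were the highest in hippocampus, and Ltbp2 (−8.45 ± 0.14), Gdf10 (−3.68 ± 0.06) and Tll1, a protease gene whose family activates GDF11-like ligands (−3.56 ± 0.09), the lowest.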

How the data were processed

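The deposited table holds raw counts per gene symbol and library, which the authors made from trimmed and aligned reads; per the submitters' processing notes, Trim Galore 0.3.7, STAR 2.5.3a, GRCm38 and DESeq2 (no version or role) were used. Per the labels' protocols, RNA was amplified by Smart-Seq2 and tagmented with Nextera XT, without strand. The counting tool and its annotation are not given in the sources used here. Without molecular identifiers, PCR copies add noise beyond counting error.

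Counts were fitted in R 4.3.3 with edgeR 4.0.16 (TMM, filterByExpr with a minimum count of 10 and minimum total of 15, quasi-likelihood test, Benjamini-Hochberg adjustment over all genes, threshold 0.05): each region with its 29 libraries of experiment 1, experiment 2 alone (9 libraries), both experiments with experiment as covariate, and regions over 87 libraries, 1 coefficient per group. CPM are counts per 1000000 of the library total; log2 CPM used a prior count of 2. Alternatives were DESeq2 1.42.0, limma-voom (limma 3.58.1), other size factors, no filter, fewer groups or libraries, and a mouse block. The scripts were tested on simulated data.

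Members and lists were chosen with earlier results of these data known. Beside the members and 13 relatives, up to 3 list genes per direction and comparison are named, those past the threshold with the largest change and a mean of at least 5 CPM, and per member the most similar genes. Labels give the same mouse in 3 regions; median correlations of a mouse's deviations were 0.0590, 0.0901 and 0.0484 between cerebellum and cortex, hippocampus and cortex, and hippocampus and cerebellum. No library held the same values as another. Some named genes are not reported here.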

Additional observations from a re-analysis of the deposited data

Results flagged for a closer look

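Timp2 differed between regions in its difference between PBS mice of 22 and 18 months, by −1.53 on the log2 scale for hippocampus minus cortex and by −1.87 for hippocampus minus cerebellum, in contrasts chosen after its values were seen. Outlying libraries were sought in 126 combinations of a member and a group of 4 or 5 libraries, which share libraries among them. In 6 combinations a single library stood far from the rest of its group, where about 6.3 are expected by chance at 1 in 20. Replicate 14 of the naive 2-month mice accounted for 2 of them in cortex, with Acvr1b at 53.4 CPM (the others at 75.0 to 77.2) and Acvr2a at 79.8 CPM (the others at 40.1 to 46.6). In cerebellum, Acvr1b of naive 2-month replicate 17 was 50.3 CPM against 54.5 to 54.9, and Igf1 of 18-month PBS replicate 8 was 11.5 CPM against 9.50 to 9.71. Gdf11 was 14.9 CPM in the cortex of plasma replicate 10 at 18 months against 11.3 to 12.1, and Bmpr2 was 126 CPM in the hippocampus of PBS replicate 2 against 107 to 108.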

How the results depend on the processing

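No called value of a member changed sign under any alternative, and other named genes were not followed through the alternatives. The count of members called for the difference between PBS ages was 1 with limma-voom, with no filter on low counts and with only the 2 groups compared in cerebellum, and 1 with limma-voom in hippocampus, against 0 in the edgeR fits of all groups with the filter. For that difference in hippocampus minus cortex, 1 member was called, 2 with DESeq2 or limma-voom, 0 without the libraries of low region markers, and 0 to 3 with each replicate left out; in hippocampus minus cerebellum it was 0 to 1, with 0 only without replicate 18. For hippocampus against cortex in naive 2-month mice, 1 member was called, 6 with limma-voom, 0 with no filter on low counts or without libraries under the depth limit, 4 without those of low region markers, and 0 to 5 with each replicate left out (5 without replicate 14). Where the construction of the alternative does not show it, the cause was not tested. Over all genes, the number called ran from 194 to 678 around 411 for naive age in cerebellum, from 1 to 483 around 27 for the PBS ages there, from 0 to 690 around 140 for hippocampus minus cerebellum and from 0 to 500 around 122 for hippocampus minus cortex. For hippocampus against cortex in naive 2-month mice it ran from 863 to 4485 around 2428. Uncalled member differences within regions changed sign in 57 of 1251 values, and in 140 of 1566 with a library left out. With TMM-scaled sizes the cerebellum median was 116 CPM for Igf1r and 95.3 for Bmpr2. With the replicate block (mouse), the Timp2 contrasts were −1.92 for hippocampus minus cerebellum and −1.54 for hippocampus minus cortex, and Acvr2a between cerebellum and cortex at 2 months (−0.38) lost its call; no other call of a member changed. Depth limits Igf1 most, with 6 to 225 counts a library.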
